A study of Mus musculus with 16 samples.

Results

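The genes Drd1, Drd5, Drd2 and Drd3, which code for dopamine receptors, and Ppp1r1b, which codes for DARPP-32, were compared across striatal RNA-seq libraries of a mouse model of Huntington’s disease (HD). They were chosen by name and by a minimum of 10 counts in at least 4 of the 16 libraries, are 5 of the 55450 genes in the count table, and all 5 were among the 19363 genes that passed this minimum. Drd4, the remaining dopamine receptor gene, had 0 to 8 counts per library and did not pass.

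Striatal RNA came from 16 male C57Bl/6 mice (C57BL/6J in the study’s methods) at the age of 14 weeks, with 4 mice and 4 libraries per group. The 8 wild-type (wt) mice were 4 “good” and 4 “poor” performers, and the 8 R6/1 mice, which carry a transgene with exon 1 of human huntingtin, were likewise 4 “good” and 4 “poor” performers. No mouse received a treatment, and all had been housed singly before behavioural testing. Within each genotype the study had sorted the mice by rotarod performance, feet clasping and body weight, so the “good” and “poor” groups are the extremes of 1 colony and not separate strains. The libraries carry running numbers. Total counts per library ran from 16155356 to 20250680 in libraries 1 to 8 and from 21529188 to 24897354 in libraries 9 to 16. All 4 R6/1 “good” mice were in libraries 1 to 8 and 3 of the 4 R6/1 “poor” mice in libraries 9 to 16. Depth and performance group are therefore tied in R6/1 mice.

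Dopamine released in the striatum acts on receptors of the D1 class (Drd1 and Drd5), which raise cAMP through stimulatory G proteins, and of the D2 class (Drd2, Drd3 and Drd4), which lower it through inhibitory ones. Drd1 marks the medium spiny neurons of the direct pathway and Drd2 those of the indirect pathway, and Drd2 is also found on cholinergic interneurons. DARPP-32 is made by medium spiny neurons of both pathways and becomes an inhibitor of protein phosphatase 1 once protein kinase A, the kinase that cAMP activates, has phosphorylated it. Loss of striatal dopamine receptors and DARPP-32 is a well-known feature of HD tissue and models.

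Drd1, Drd2 and Ppp1r1b were lower in all 8 R6/1 mice than in any of the 8 wild-type mice, as were 5.03% of all genes. They were also lower in all 4 R6/1 “poor” mice than in any of the 4 R6/1 “good” mice, as were 4% of all genes. Between these R6/1 groups the edgeR test called none of them (adjusted p = 0.248, 0.248 and 0.249), and 0% of all genes. DESeq2 called each of them, among the 0.666% of genes it called lower. Library set and performance group are tied in this comparison. Mean levels of Drd1, Drd2 and Ppp1r1b in R6/1 “good” mice were 46.5%, 40.6% and 38.8% of the wild-type mean, and in R6/1 “poor” mice 29.6%, 22.6% and 23.1%. Drd5, a receptor gene of low level (14 to 87 counts per library), was at 39.3% of the wild-type mean in R6/1 “good” mice and at 65.2% in R6/1 “poor” mice. This difference between the R6/1 groups was not called either (adjusted p = 0.298, edgeR). Drd3 gave no call in any comparison.

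The annotation (GENCODE M21, mouse genome build GRCm38) places the genes on 5 chromosomes. Drd1 (ENSMUSG00000021478) lies on the reverse strand at chr13:54051183-54055705 and Drd5 (ENSMUSG00000039358) on the forward strand at chr5:38319367-38322518, as a gene of 1 exon. Drd2 (ENSMUSG00000032259) lies at chr9:49340627-49408177, Drd3 (ENSMUSG00000022705) at chr16:43754026-43822932 and Ppp1r1b (ENSMUSG00000061718) at chr11:98348404-98357796, all on the forward strand. On the opposite strand Gm26560 overlaps Drd5 and 1700003D09Rik overlaps Ppp1r1b, and since the strand setting of the read counting is not given, reads in the shared bases could have been assigned to either. Gm26560 had at most 6 counts in a library against 14 or more of Drd5, and 1700003D09Rik at most 1211 against 5188 or more of Ppp1r1b.

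Promoter sequences of 300 bases (250 before to 50 after the start, RefSeq, build GRCm38.p6) were found for the 4 receptor genes and are shown. Any link between these sequences and the levels of the genes was not tested. Each is read 5′ to 3′ on the gene’s own strand, and capitals mark a GC box (GGGCGG) or a CCAAT box (CCAAT) on either strand. The windows are chr13:54055609-54055908 (reverse strand) for Drd1, the farther upstream of its 2 entries, chr9:49340153-49340452 (forward) for Drd2, chr5:38319259-38319558 (forward) for Drd5 and chr16:43761971-43762270 (forward) for Drd3. The Drd3 window lies inside the gene as annotated above, downstream of its annotated start at 43754026. The Drd2 window ends at 49340452, before the annotated start of that gene at 49340627. The Drd1 entry not shown had 59.3% G and C and 1 GC box.
Drd1: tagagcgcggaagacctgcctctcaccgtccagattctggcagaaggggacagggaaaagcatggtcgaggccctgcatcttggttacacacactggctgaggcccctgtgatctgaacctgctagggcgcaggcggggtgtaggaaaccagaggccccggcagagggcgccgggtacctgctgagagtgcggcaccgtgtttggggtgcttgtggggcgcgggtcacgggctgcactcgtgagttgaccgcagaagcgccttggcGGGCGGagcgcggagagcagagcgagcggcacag
Drd2: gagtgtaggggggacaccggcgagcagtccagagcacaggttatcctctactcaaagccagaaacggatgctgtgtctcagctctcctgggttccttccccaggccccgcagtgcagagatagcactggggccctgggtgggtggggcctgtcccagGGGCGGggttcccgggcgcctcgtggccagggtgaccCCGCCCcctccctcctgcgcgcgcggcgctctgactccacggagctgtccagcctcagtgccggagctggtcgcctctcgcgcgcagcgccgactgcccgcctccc
Drd5: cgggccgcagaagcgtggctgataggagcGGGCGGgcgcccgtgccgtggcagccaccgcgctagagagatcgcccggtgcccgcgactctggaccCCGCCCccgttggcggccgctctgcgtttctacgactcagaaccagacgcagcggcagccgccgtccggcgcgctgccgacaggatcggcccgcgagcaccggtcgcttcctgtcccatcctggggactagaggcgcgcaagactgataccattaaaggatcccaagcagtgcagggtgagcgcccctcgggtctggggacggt
Drd3: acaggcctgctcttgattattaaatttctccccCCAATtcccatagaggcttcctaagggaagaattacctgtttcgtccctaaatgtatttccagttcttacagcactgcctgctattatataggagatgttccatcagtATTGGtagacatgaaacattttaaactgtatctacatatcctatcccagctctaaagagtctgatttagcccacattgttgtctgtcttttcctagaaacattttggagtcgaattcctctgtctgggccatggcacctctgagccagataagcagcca
The windows of Drd1, Drd2 and Drd5 were rich in G and C (65.7%, 70.3% and 70.3%, against a median of 52.7% over 32851 promoter windows) and held 1, 2 and 2 GC boxes, while that of Drd3 had 42% G and C, 2 CCAAT boxes and no GC box. A GC box was in 35.7% and a CCAAT box in 37.4% of all windows. No TATA box (TATAAA, in 13.6% of windows) and no full cAMP response element (TGACGTCA, in 1.79%) was matched in these 4 windows on either strand. The marked matches do not overlap each other.

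Per length, the 5 genes of wild-type striatum fell into 2 ranges. CPM (counts scaled by library size) were divided by the length of the longest coding transcript, which was 3576 bases for Drd1, 3152 for Drd5, 2547 for Drd2, 1712 for Drd3 and 2001 for Ppp1r1b. Ppp1r1b was the highest at 614 ± 131 CPM per kilobase (SD, n = 8), followed by Drd2 at 113 ± 31.1 and Drd1 at 77.8 ± 14.0, whose ranges over the mice overlapped (84.2 to 163 and 62.8 to 103). Drd3 at 1.07 ± 0.477 and Drd5 at 0.911 ± 0.200 also overlapped and lay far below. In R6/1 “poor” mice the order at the top was Ppp1r1b (142 ± 28.8, n = 4), Drd2 (25.5 ± 4.79) and Drd1 (23.0 ± 4.04), and the ranges of both receptors again overlapped.

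**Figure D1:**
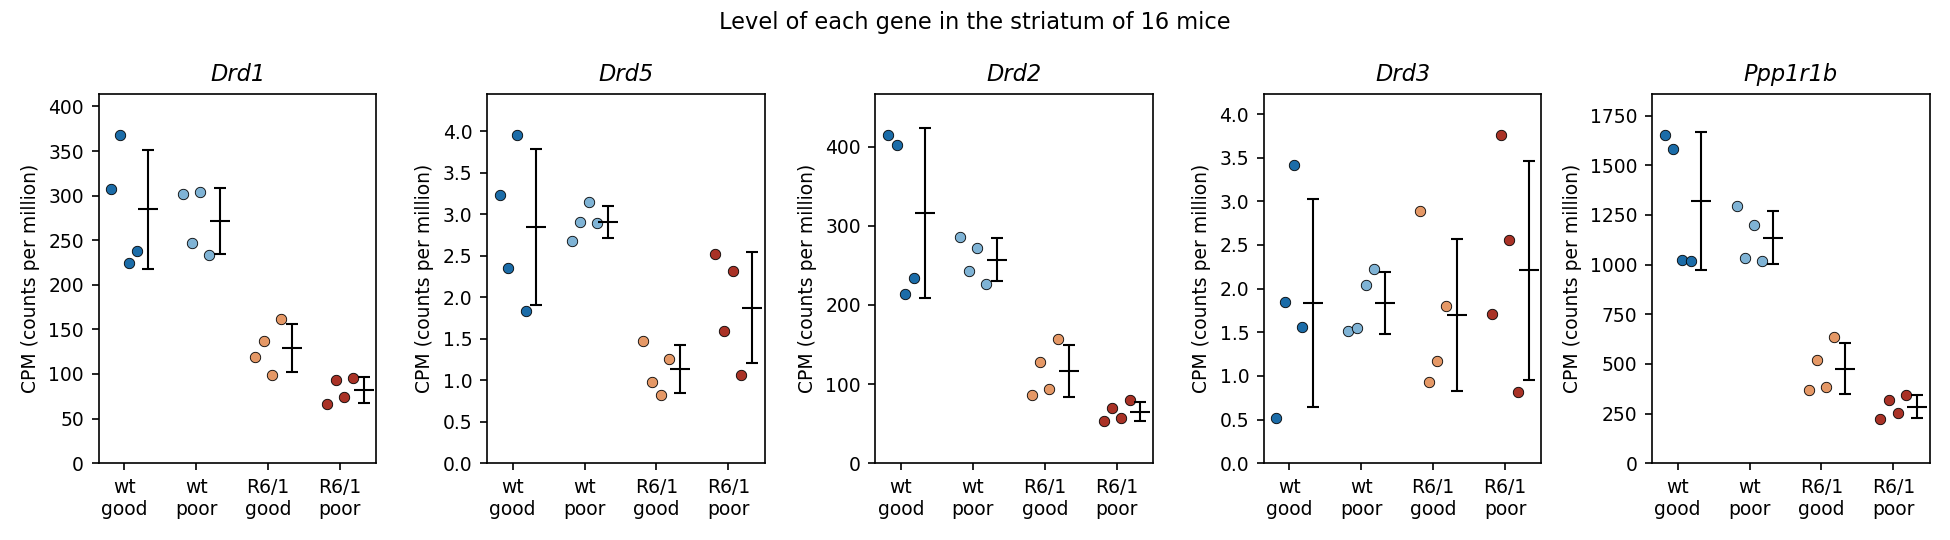
Level of each gene in CPM (vertical axis, from 0, scale differs between panels) in the 4 groups (horizontal axis), with 1 point per mouse in the order mouse 1 to 4 and, to the right, the mean and SD. For Drd1, Drd2 and Ppp1r1b every R6/1 point lies below every wild-type point, and the points of Drd3 overlap in all groups.

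Drd1, the main D1-class receptor of the striatum, was at 307, 368, 225 and 238 CPM in wild-type “good” mice 1 to 4 and at 301, 247, 304 and 233 CPM in wild-type “poor” mice 1 to 4. The R6/1 “good” mice 1 to 4 had 119, 138, 99.3 and 162 CPM, and R6/1 “poor” mice 1 to 4 had 66.3, 93.6, 74.0 and 95.5 CPM. The wild-type groups overlapped throughout, the R6/1 mice lay below them, and the highest R6/1 “poor” mouse lay just under the lowest R6/1 “good” mouse. The log2 fold change against all wild-type mice was −1.10 ± 0.15 (SE) in R6/1 “good” mice (adjusted p = 0.000229, edgeR quasi-likelihood test with Benjamini-Hochberg adjustment over all genes). For R6/1 “poor” mice it was −1.76 ± 0.15 (adjusted p = 8.8e-06, edgeR).

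Drd5, the second receptor of the D1 class, which in striatum is known mainly from interneurons, was measured on few counts, from 14 to 87 per library. In wild-type “good” mice 1 to 4 it was at 3.24, 2.35, 3.96 and 1.83 CPM and in wild-type “poor” mice 1 to 4 at 2.67, 2.90, 3.14 and 2.89 CPM. In R6/1 “good” mice 1 to 4 it was at 1.47, 0.981, 0.818 and 1.25 CPM, all below the wild-type range. In R6/1 “poor” mice 1 to 4 it was at 2.52, 1.59, 2.31 and 1.06 CPM, so that mice 1 and 3 fell within the wild-type range and mice 2 and 4 below it.

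For Drd5 the log2 fold change against wild-type mice was −1.34 ± 0.22 in R6/1 “good” mice (adjusted p = 0.00058, edgeR) and −0.62 ± 0.24 for R6/1 “poor” mice (adjusted p = 0.0623, edgeR), which missed the threshold of 0.05. R6/1 “poor” mice 1 and 3, the high pair, also had the highest sums of 6 lateral septal markers (241 and 180 CPM, against 67.1 to 108 in the other 14 mice) and of 8 hypothalamic markers (35.7 and 24.0 CPM, against 3.97 to 15.5 in the other 14 mice). Without these 2 mice, an alternative chosen after seeing the data, the Drd5 value was −1.12, and since they held the highest Drd5 levels of their group, leaving them out had to lower it. With each mouse left out in turn it ran from −0.80 (without R6/1 “poor” mouse 1, adjusted p = 0.0411, edgeR) to −0.42 (without R6/1 “poor” mouse 4, adjusted p = 0.173, edgeR). The threshold was also passed with DESeq2 (adjusted p = 0.0379) and without wild-type “good” mouse 4 (adjusted p = 0.0341, edgeR), and missed with wild-type “poor” mice alone as controls (adjusted p = 0.0979, edgeR) and without R6/1 “poor” mouse 2 (−0.55, adjusted p = 0.142, edgeR).

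Drd2, the D2-class receptor of indirect pathway neurons, was at 415, 403, 214 and 234 CPM in wild-type “good” mice 1 to 4 and at 286, 243, 272 and 226 CPM in wild-type “poor” mice 1 to 4. In R6/1 “good” mice 1 to 4 it was at 86.5, 128, 93.9 and 157 CPM, and in R6/1 “poor” mice 1 to 4 at 52.9, 70.2, 57.2 and 79.5 CPM. Wild-type “good” mice 1 and 2 stood above the other 6 wild-type mice, and neither R6/1 group reached the wild-type range. Its log2 fold change against wild-type mice was −1.30 ± 0.23 in R6/1 “good” mice (adjusted p = 0.00175, edgeR) and −2.14 ± 0.21 for R6/1 “poor” mice (adjusted p = 2.5e-05, edgeR).

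Drd3, a D2-class receptor best known from the ventral striatum and the islands of Calleja, had 10 to 78 counts per library. It was at 0.522, 1.84, 3.41 and 1.56 CPM in wild-type “good” mice 1 to 4, and at 1.51, 1.55, 2.04 and 2.22 CPM in wild-type “poor” mice 1 to 4. In R6/1 “good” mice 1 to 4 it was at 2.89, 0.932, 1.17 and 1.80 CPM, and in R6/1 “poor” mice 1 to 4 at 1.71, 3.77, 2.55 and 0.818 CPM. All groups overlapped, and the SD within 3 of the 4 groups (0.876 to 1.25 CPM) was larger than the largest difference between group means. The log2 fold change against wild-type mice was −0.11 ± 0.38 in R6/1 “good” and 0.25 ± 0.39 for R6/1 “poor” mice (adjusted p = 0.86 and 0.668, edgeR).

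Ppp1r1b, the gene of DARPP-32, was at 1655, 1584.5, 1025 and 1017 CPM in wild-type “good” mice 1 to 4 and at 1297, 1032, 1199 and 1018 CPM in wild-type “poor” mice 1 to 4. In R6/1 “good” mice 1 to 4 it was at 368, 518, 381 and 637 CPM, and in R6/1 “poor” mice 1 to 4 at 222, 320, 251 and 345 CPM. The mice kept the order they had for Drd2 in both R6/1 groups, with mouse 4 the highest and mouse 1 the lowest. Its log2 fold change against wild-type mice was −1.37 ± 0.19 in R6/1 “good” mice (adjusted p = 0.000277, edgeR) and −2.11 ± 0.18 for R6/1 “poor” mice (adjusted p = 8.8e-06, edgeR).

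Of the 5 genes, 4 in R6/1 “good” mice (Drd1, Drd5, Drd2 and Ppp1r1b) passed the test as lower than in wild-type mice, where 12.4% of all genes tested were called lower. In R6/1 “poor” mice 3 of the 5 did (Drd1, Drd2 and Ppp1r1b), against 14.9% of all genes, and with all 8 R6/1 mice 4 of the 5, against 17% of all genes. These comparisons share the 8 wild-type mice. Among the 19363 genes, only 0.584% had a log2 fold change as low as that of Ppp1r1b in R6/1 “poor” mice, and 0.542% and 0.961% as low as those of Drd2 and Drd1. The CPM of every R6/1 mouse lay below that of every wild-type mouse for 3 of the 5 genes and for 5.03% of all genes. In whole striatum, fewer medium spiny neurons and less RNA per neuron cannot be told apart.

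Running number and performance group are tied in R6/1 mice, so the comparisons with wild-type mice were also made among libraries of 1 set. Within libraries 1 to 8 the R6/1 “good” mice had log2 fold changes of −1.14 for Drd1, −1.20 for Drd5, −1.44 for Drd2 and −1.49 for Ppp1r1b, each past the threshold with edgeR. Within libraries 9 to 16 the 3 R6/1 “poor” mice there had −1.81 for Drd1, −2.10 for Drd2 and −2.11 for Ppp1r1b (past the threshold with edgeR) and −0.63 for Drd5 (adjusted p = 0.143, edgeR). With the 5 R6/1 mice of libraries 1 to 8 as 1 group (4 “good” and 1 “poor”) the values there were −1.22 for Drd1, −1.08 for Drd5, −1.56 for Drd2 and −1.59 for Ppp1r1b.

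**Figure D2:**
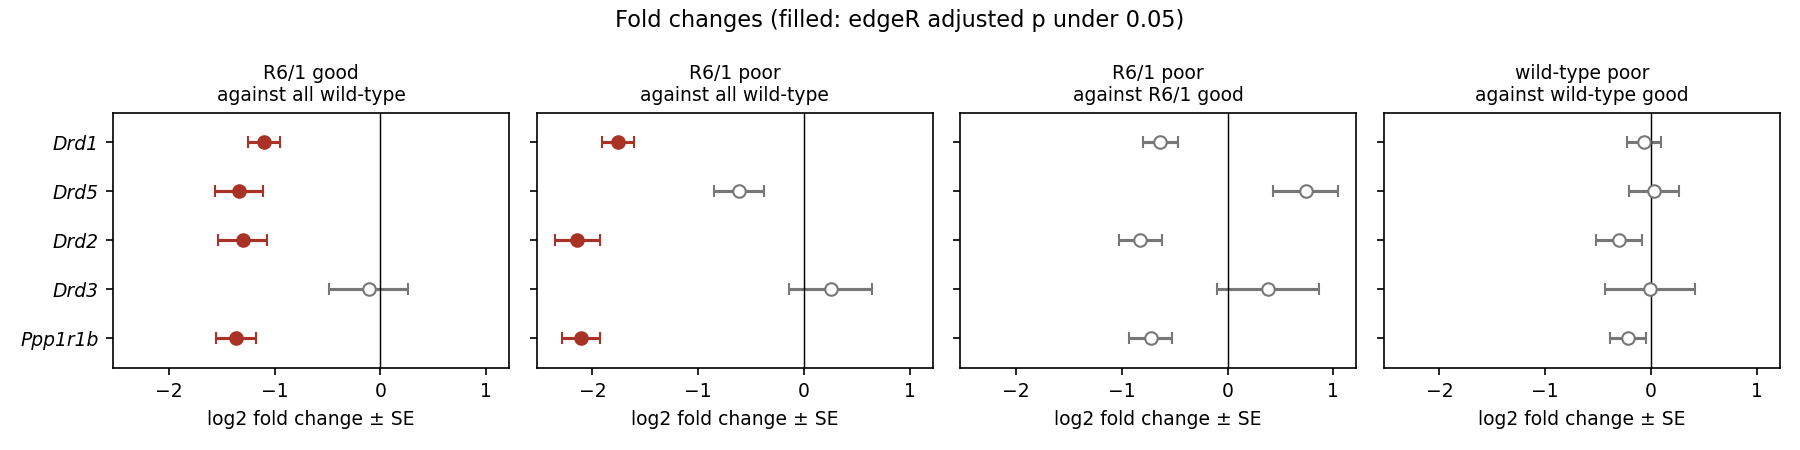
Log2 fold change (horizontal axis) with its SE for the 5 genes in 4 comparisons, filled where the edgeR adjusted p was under 0.05. Drd1, Drd2 and Ppp1r1b are filled in both comparisons with wild-type mice, Drd5 in that of R6/1 “good” mice, and no point is filled between “poor” and “good” mice of the same genotype.

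Whether worse performance went with a different level was asked within each genotype. Between the “poor” and “good” groups of R6/1 mice the log2 differences were −0.64 ± 0.16 for Drd1, −0.83 ± 0.20 for Drd2 and −0.73 ± 0.20 for Ppp1r1b, with the “poor” mice lower, and 0.74 ± 0.31 for Drd5 and 0.38 ± 0.48 for Drd3, with the “poor” mice higher. None passed the main test (adjusted p = 0.248, 0.248, 0.249, 0.298 and 0.718, edgeR), in which 0% of all genes were called although 3000 had an unadjusted p under 0.05. DESeq2 called Drd1, Drd2 and Ppp1r1b (adjusted p = 0.0161, 0.00722 and 0.0175) among the 0.666% of genes it called lower, and it returned no adjusted p for Drd5. Every R6/1 “poor” mouse was below every R6/1 “good” mouse for these 3 genes, and so for 4% of all genes.

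The R6/1 groups can be set against each other within libraries 1 to 8 with 1 “poor” mouse (mouse 2), which is assumed to vary like the others. There the differences were −0.46 for Drd1, −0.72 for Drd2 and −0.56 for Ppp1r1b, with adjusted p of 1.0 in edgeR. Apart from that mouse, library set and performance group cannot be told apart in R6/1 mice. Without R6/1 “poor” mice 1 and 3, which had the high septal and hypothalamic sums, the 3 differences were −0.44, −0.62 and −0.50, and that of Drd5 was 0.24 in place of 0.74. These mice were the lowest of their group for Drd1, Drd2 and Ppp1r1b and the highest for Drd5, so leaving them out had to bring the groups closer.

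In wild-type mice all 5 genes overlapped between the “poor” and “good” groups. The log2 differences were −0.066 ± 0.16 for Drd1, 0.029 ± 0.23 for Drd5, −0.30 ± 0.22 for Drd2, −0.011 ± 0.42 for Drd3 and −0.21 ± 0.17 for Ppp1r1b. The test called 0% of all genes here (472 with an unadjusted p under 0.05, and 0 calls by DESeq2). Whether the “poor” against “good” difference itself differed between genotypes was tested as an interaction, which was −0.58 ± 0.25 for Drd1, −0.54 ± 0.33 for Drd2, −0.53 ± 0.29 for Ppp1r1b, 0.69 ± 0.39 for Drd5 and 0.38 ± 0.69 for Drd3. That test too called 0% of all genes with edgeR (1118 with an unadjusted p under 0.05, and 1 call by DESeq2, none of the 5), so the size of the difference was not shown to depend on genotype.

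The ratio of Drd1 to Drd2 counts compares the D1 and D2 classes within a library and does not depend on depth or scaling. It was 0.739, 0.915, 1.05 and 1.02 in wild-type “good” mice 1 to 4 and 1.05, 1.02, 1.12 and 1.03 in wild-type “poor” mice 1 to 4. It was 1.37, 1.07, 1.06 and 1.03 in R6/1 “good” mice 1 to 4 and 1.25, 1.33, 1.30 and 1.20 in R6/1 “poor” mice 1 to 4. All R6/1 “poor” mice lay above all wild-type mice, while R6/1 “good” mice 2 to 4 lay among them.

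**Figure D3:**
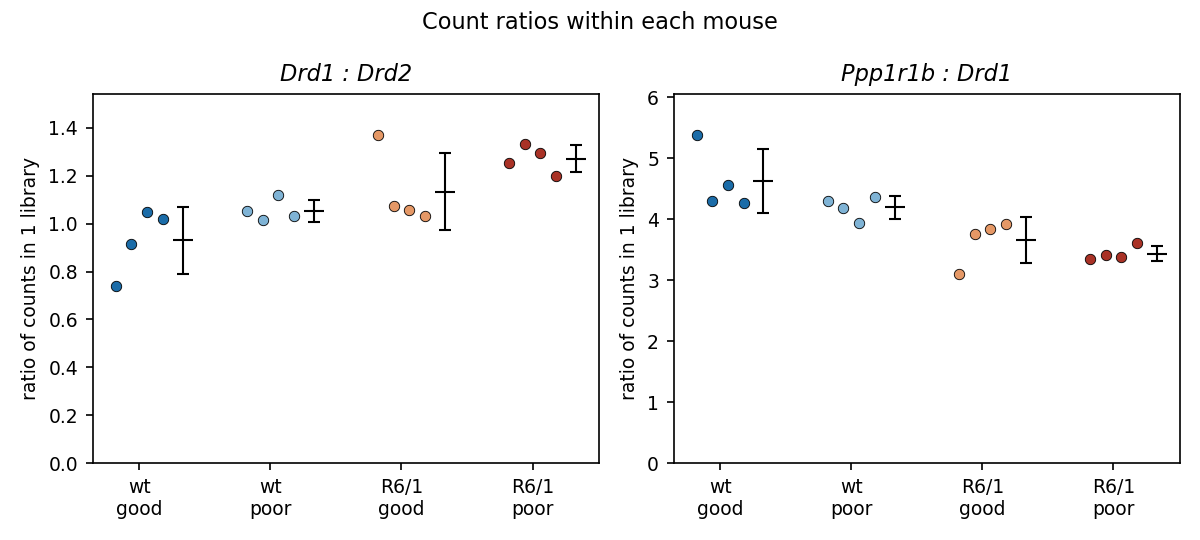
Ratio of Drd1 to Drd2 counts (left) and of Ppp1r1b to Drd1 counts (right) in each library (vertical axes, from 0), by group, with 1 point per mouse in the order mouse 1 to 4 and, to the right, the mean and SD. The left ratio runs from 1.20 to 1.33 in R6/1 “poor” mice, above all wild-type points, and the right one from 3.10 to 3.93 in all R6/1 mice, below all wild-type points.

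The mean ratio was 0.930 ± 0.140 and 1.05 ± 0.0453 (SD, n = 4) in wild-type “good” and “poor” mice and 1.13 ± 0.160 and 1.27 ± 0.0568 in R6/1 “good” and “poor” mice, that is, more Drd1 per Drd2 count in R6/1 mice. Between all R6/1 and all wild-type mice the log2 ratio differed by 0.28 (p = 0.00466, two-sided exact permutation test, smallest possible p = 0.000155, n = 8 and 8). Within libraries 9 to 16 the difference was 0.29 (exact permutation p = 0.0179, the smallest 3 against 5 mice can give), and within libraries 1 to 8 it was 0.33 (exact permutation p = 0.107). Between R6/1 “poor” and “good” mice it was 0.17 and between wild-type “poor” and “good” mice 0.19 (exact permutation p = 0.143 for both, with 0.0286 the smallest 4 against 4 mice can give). After Benjamini-Hochberg adjustment over these 3 exact permutation tests the p was 0.014 for genotype and 0.143 for both others.

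Ppp1r1b counts were 4.27 to 5.39 times those of Drd1 in wild-type “good” mice and 3.94 to 4.36 times in wild-type “poor” mice. These were, for R6/1 “good” mice, 3.10 to 3.93 times and in R6/1 “poor” mice 3.34 to 3.61 times those of Drd1. Against Drd2 the same counts were 3.93 to 4.78 times in wild-type and 4.04 to 4.56 times in R6/1 mice, and those ranges overlapped.

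Likeness across the mice was measured as the root mean square difference of log2 CPM, each gene taken relative to its wild-type mean, over the 16 mice. Drd2 and Ppp1r1b differed by 0.0784, and each was the most like gene to the other among 19362, where the median gene differed from them by 1.32 and 1.33. The next most like genes were Rasd2 (0.109) and Itga5 (0.118) for Drd2, and Rasgrp2 (0.123) and Rasd2 (0.137) for Ppp1r1b. Drd1 was most like Pde1b (0.127), Adcy5 (0.145) and Tesc (0.146). Drd1 differed from Ppp1r1b by 0.251 and from Drd2 by 0.256. The low receptors had no close neighbour, the nearest being Fibcd1 (0.291), Cdh4 (0.298) and Selenov (0.307) for Drd5 and Sox1ot (0.416), Tunar (0.458) and Gm7854 (0.462) for Drd3, values that include the counting error of few reads.

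Downstream of the receptors, the genes of the dopamine pathway were given by function, comparing the 8 R6/1 with the 8 wild-type mice, where 3295 of 19363 genes were called lower and 3325 higher with a median log2 fold change of 0.021. Of 11 G protein and adenylyl cyclase genes 5 fell and 3 rose (median 0.012). The largest fall was that of Adcy5, the main striatal adenylyl cyclase (−1.53 ± 0.14), with Gng7 (−1.06 ± 0.18), Gnb5 (−0.71 ± 0.10) and Gnao1 (−0.38 ± 0.07) also lower. Of 6 subunits of protein kinase A 4 rose and 1 fell (median 0.24), with the regulatory subunits Prkar2a (0.36 ± 0.11), Prkar1b (0.35 ± 0.10) and Prkar1a (0.21 ± 0.06) and the catalytic subunit Prkacb (0.27 ± 0.06) higher.

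Of 12 kinases and phosphatases that act on DARPP-32 or are its target 7 fell and 0 rose (median −0.19). Among them were Ppp3ca and Ppp3r1, subunits of calcineurin, the phosphatase that removes the protein kinase A phosphate from DARPP-32 (−1.11 ± 0.12 and −0.60 ± 0.09), and Ppp1ca, a catalytic subunit of protein phosphatase 1 (−0.82 ± 0.11). Cdk5r1, the activator of the kinase Cdk5, was at −0.30 ± 0.06. Of 9 receptor kinases, arrestins and RGS proteins 5 fell and 0 rose (median −0.36), led by Rgs9 (−1.85 ± 0.18) and Rgs4 (−1.63 ± 0.21), which speed up the shut-off of G proteins, with Arrb1 (−0.36 ± 0.06) and Grk5 (−0.36 ± 0.06) behind them.

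Of the 4 other cAMP-regulated phosphoproteins 3 fell and 0 rose (median −1.45), namely Arpp19 (−1.61 ± 0.16), Arpp21 (−1.55 ± 0.14) and Ppp1r1a (−1.34 ± 0.11), while Ensa was at 0.15 ± 0.08 (adjusted p = 0.134, edgeR). Of 7 genes of dopamine synthesis, transport and breakdown 1 fell and 1 rose (median −0.10). Th, the rate-limiting enzyme of dopamine synthesis, was at −0.56 ± 0.12, and Maoa, a monoamine oxidase that breaks dopamine down, at 0.24 ± 0.06. The cell bodies of dopamine neurons lie outside the striatum, and Slc6a3, the dopamine transporter, had 0 to 17 counts per library.

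**Figure D4:**
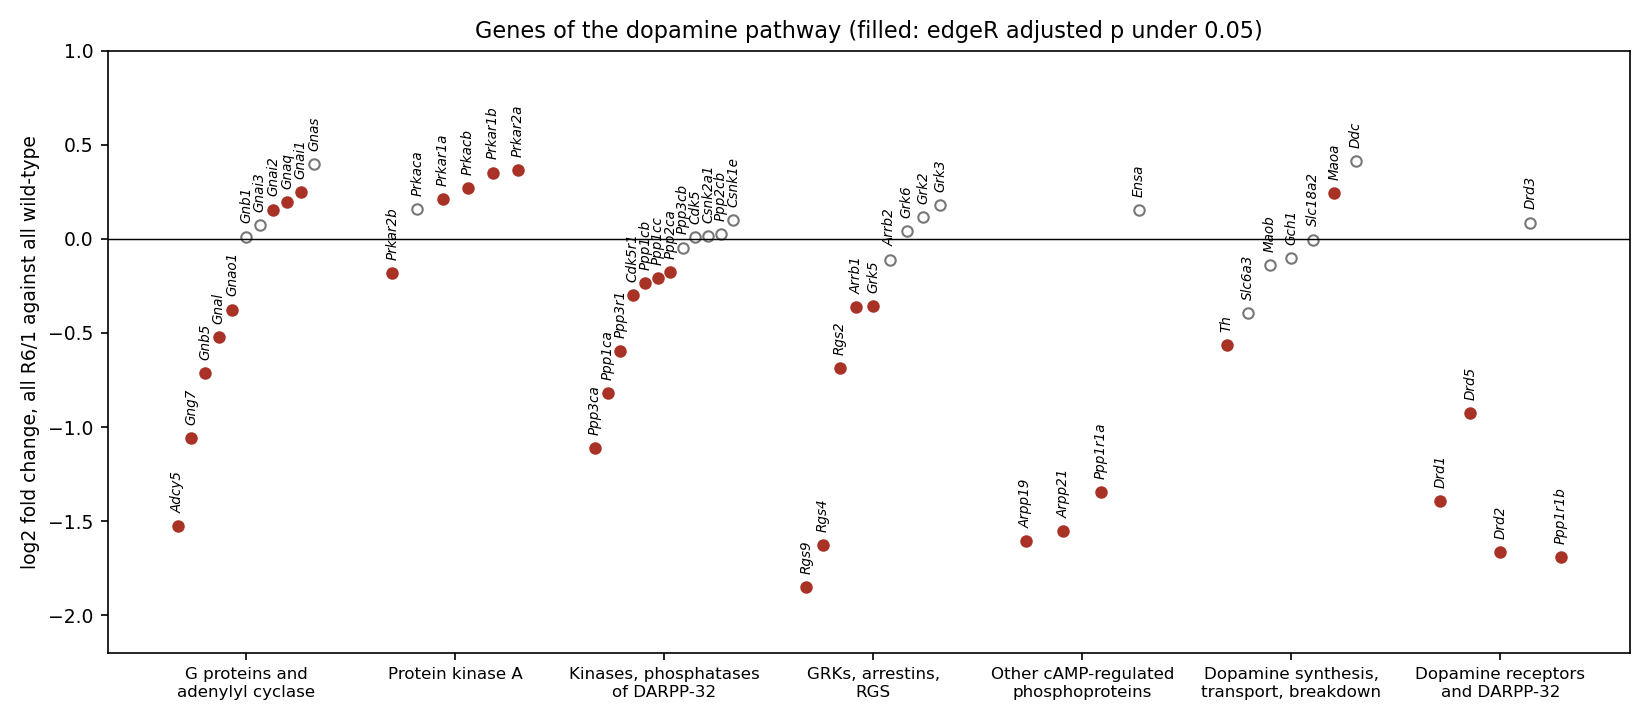
Log2 fold change between the 8 R6/1 and the 8 wild-type mice (vertical axis) for each gene of the 6 pathway lists and for the 5 genes themselves (horizontal axis, by list), filled where the edgeR adjusted p was under 0.05. The filled points of the receptors and DARPP-32 lie between −0.92 and −1.69, and the filled points of protein kinase A subunits lie between −0.18 and 0.36.

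Marker lists were used to describe the cells that carry these receptors, without a library of another tissue to compare. The sum of 12 markers of medium spiny neurons ran from 6178 to 10328 CPM in wild-type, 2643 to 4297 CPM in R6/1 “good” and 1769 to 2576 CPM in R6/1 “poor” mice. Of these 12 genes 11 were called lower over all R6/1 mice (median −1.12), where 17% of all genes were called lower and 17.2% higher. Among the 12 were Scn4b at −3.12 ± 0.24, Pde10a at −1.98 ± 0.19, Rgs14 at −1.70 ± 0.15 and Bcl11b at −0.86 ± 0.12. Of 8 direct pathway markers, the cells of Drd1, 4 fell and 0 rose (median −0.31), with Chrm4 at −1.47 ± 0.13, Pdyn at −1.03 ± 0.15, Slc35d3 at −0.87 ± 0.14 and Tac1 at −0.44 ± 0.14. The other 4 were Sfxn1 at −0.17 ± 0.10, Ebf1 at 0.017 ± 0.14, Isl1 at 0.19 ± 0.11 and Eya1 at 0.33 ± 0.13 (adjusted p = 0.0531, edgeR), and in R6/1 “good” mice alone Eya1 was called higher (0.46 ± 0.14, adjusted p = 0.0259, edgeR). Of 4 measured indirect pathway markers, the cells of Drd2, 3 fell and 0 rose (median −1.87), with Penk at −2.32 ± 0.14, Adora2a at −2.13 ± 0.24 and Gpr6 at −1.61 ± 0.18.

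Of 6 cholinergic interneuron markers 4 fell and 0 rose (median −1.32), with Chat, the enzyme that makes acetylcholine, at −1.75 ± 0.17. Their sum was 73.1 to 152 CPM in wild-type, 27.9 to 47.8 CPM in R6/1 “good” and 27.6 to 64.4 CPM in R6/1 “poor” mice, where mice 1 and 3 were again the highest (64.4 and 60.6 CPM). Glial and vascular lists were also lower in part, with 4 of 7 astrocyte, 3 of 7 oligodendrocyte, 7 of 7 microglial and 5 of 6 endothelial markers called lower and 0 higher. Of all genes tested 17% were called lower and 17.2% higher.

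**Figure D5:**
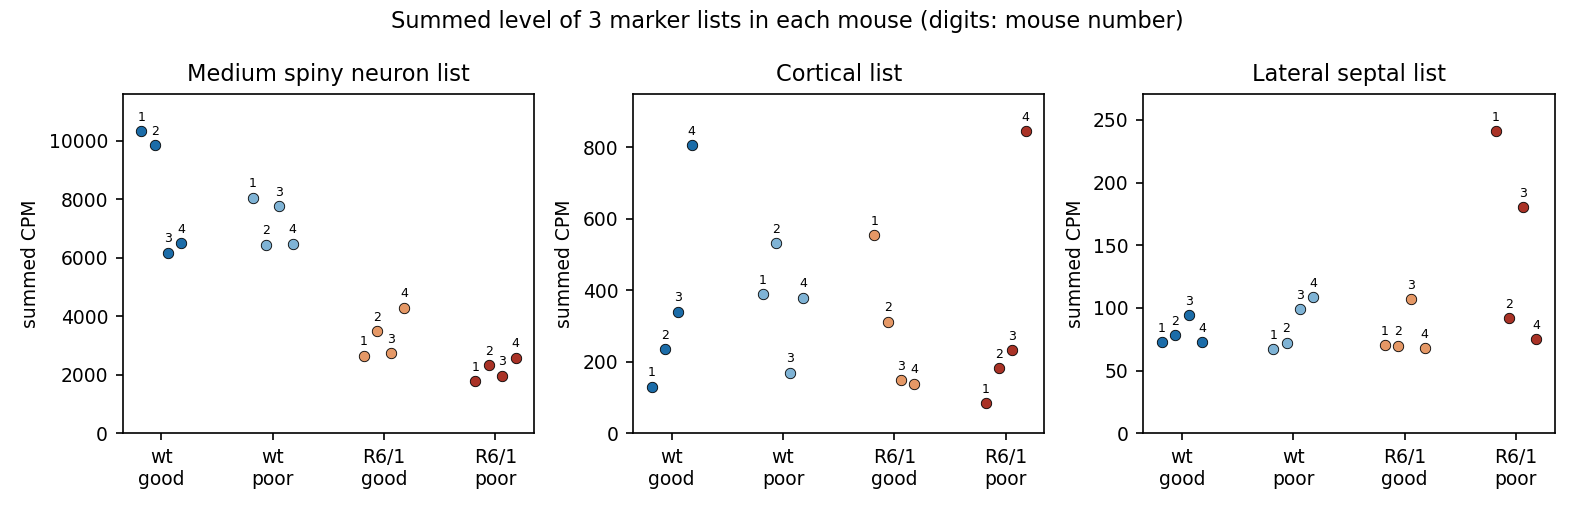
Summed CPM (vertical axes, from 0) of the marker lists of medium spiny neurons, cortical excitatory neurons and lateral septal neurons in each mouse, by group, with the mouse number beside each point. The medium spiny neuron sums separate the genotypes, the cortical sums are highest in wild-type “good” mouse 4 and R6/1 “poor” mouse 4, and the septal sums are highest in R6/1 “poor” mice 1 and 3.

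Markers of neighbouring tissue varied between mice of 1 group. The sum of 6 cortical markers ran from 83.3 to 845 CPM over the 16 mice and was highest in R6/1 “poor” mouse 4 (845 CPM) and wild-type “good” mouse 4 (806 CPM), which had Drd2 levels of 79.5 and 234 CPM. Without both, the log2 fold changes of Drd1, Drd2 and Ppp1r1b in R6/1 “poor” against wild-type mice were −1.86, −2.29 and −2.25, and without R6/1 “poor” mice 1 and 3 they were −1.55, −1.94 and −1.88, all past the threshold with edgeR. Over the 8 R6/1 mice 1 of 6 cortical markers (Lamp5, −0.49 ± 0.14) was called lower and 1 of 6 septal markers (Trpc4, 0.53 ± 0.19) higher than in wild-type mice. In either direction 0 of 5 measured hypothalamic and 0 of 6 ependymal markers were called. Of all genes 17% were called lower and 17.2% higher in that comparison. Taken by group, in R6/1 “poor” mice 3 of 6 septal markers were called higher than in wild-type mice, as were 13.5% of all genes. The 3 were Trpc4 (0.84 ± 0.18), Zic2 (1.35 ± 0.40) and Zic4 (1.84 ± 0.52), with a median over the 6 of 1.03 and none below 0. In R6/1 “good” mice none of the 6 was called (median 0.030), against 12.1% of all genes called higher. Of 5 hypothalamic markers 1 was called lower in R6/1 “good” mice (Trh, −1.27 ± 0.21, also the median), as were 12.4% of all genes. In R6/1 “poor” mice 0 were called (median 0.89), against 14.9% of all genes called lower and 13.5% higher. Between the R6/1 groups themselves edgeR called 0% of all genes, so the lack of a call says nothing particular about these markers. Their median log2 differences there were 0.92 (septal), 2.18 (hypothalamic), 0.68 (ependymal) and 0.58 (cortical), with 1 cortical marker below 0. The part of these markers in the differences of the receptor genes was not tested. The sums of 6 ependymal markers were 18.8 to 48.3 CPM in wild-type, 19.6 to 30.7 CPM in R6/1 “good” and 27.0 to 53.7 CPM in R6/1 “poor” mice.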

How the data were processed

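The authors prepared stranded mRNA libraries, sequenced them as pairs and mapped them with TopHat 1.0.1 to GRCm38, and the submitters’ notes also name CASAVA and Bowtie. Deposited are raw counts without normalization, as whole numbers per gene and mouse. Neither read counter nor strand setting nor annotation release is given in the sources used here. All 55450 identifiers had a symbol, and all 16 columns were used. Pairs of libraries of 1 group differed by 5.31 to 36.5 times the counting noise (chi-square per degree of freedom), so none is a second copy of another’s reads. Wild-type “good” mice 1 and 2 carry the sample names 8 and 8b and differed by 17.8 times. The study’s methods give 4 mice per group, but that these came from separate mice was not tested by the counts, and they were kept as 2 samples.

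The genes that reached 10 counts in 4 or more libraries were normalized by TMM and tested with the quasi-likelihood test of edgeR 4.0.16 (robust dispersions, Benjamini-Hochberg adjustment over 19363 genes, threshold 0.05) in R 4.3.3. The SE of a log2 fold change comes from the same fit. Each fit held only the mice compared, without covariates. DESeq2 1.42.0 was an alternative, and adjusted p it returned as missing were left so. CPM are TMM-scaled, and likeness used log2 CPM with a prior count of 2. The fitting script was tested on simulated data. Count ratios were tested by exact permutation. Drd3 and Drd5 rest on few counts (10 to 78 and 14 to 87 per library).

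The genes, lists and rules were chosen with earlier results of these data known. Named are the 5 genes, up to 4 genes with the smallest p of each list between the genotypes and the 3 genes most like each of the 5. Slc6a3 and Drd4 were named for their low counts, and further direct pathway, septal and hypothalamic markers after their values were seen. Of 134 list symbols 1 had no match, and 1 further gene of a pathway list is not reported here. Alternatives were DESeq2, RLE factors, no filter, a filter of 50 counts, no robust dispersions, a fit of all groups together, the replicate block, controls of matched performance only, the library set as a covariate or alone, and each mouse left out, and, added after the data were seen, leaving out the pairs of mice with the highest septal or cortical sums. Proteins and behaviour were not analysed here.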

Additional observations from a re-analysis of the deposited data

Results flagged for a closer look

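The ratio of Drd1 to Drd2 counts in R6/1 “good” mouse 1 was 1.37, while the other 3 mice of its group lay between 1.03 and 1.07, so that this mouse stood apart from its group. Of 24 sets of 4 values checked, 1 was marked this way, and chance marks about 1 in 20. The same mouse had the lowest Drd2 level of its group (86.5 CPM) and a cortical marker sum of 554 CPM, against 138 to 311 CPM in the other 3. The highest cortical sums were in R6/1 “poor” mouse 4 (845 CPM) and wild-type “good” mouse 4 (806 CPM), with ratios of 1.20 and 1.02. A link between cortical sum and ratio was not tested.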

How the results depend on the processing

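The calls of Drd1, Drd2 and Ppp1r1b as lower in each R6/1 group than in wild-type mice held in all alternatives except within libraries 1 to 8, where 1 R6/1 “poor” mouse remained, and there 1 of the 5 genes was called in place of 3 (Drd1, −1.59; Drd2 was at −2.15 and Ppp1r1b at −2.05). Between the R6/1 groups, DESeq2 and the replicate number as a block each called 3 genes in place of 0 (Drd1, Drd2 and Ppp1r1b), and with the block 96 genes were called in all, 50 of them lower. The labels do not say whether mice of the same number share anything beyond it. A correlation of deviations over 0.1 was found in 5 of 24 same-number pairs of mice and in 22 of 72 pairs of different number. Of 16 mice 2 correlated best with their own number. For all R6/1 against wild-type mice the log2 Drd1 to Drd2 ratio was 0.33 within libraries 1 to 8, short of the threshold, and 0.22 to 0.31 with each mouse left out. For R6/1 “poor” against “good” it was 0.13 to 0.27 with each mouse left out, and 0.27 without R6/1 “good” mouse 1, where the exact permutation p = 0.0286 is the smallest possible. With the block the exact permutation p of the ratio was 0.00772 for genotype, 0.25 for R6/1 and 0.125 for wild-type mice. Within either genotype 0.125 was the smallest p this test could give, so it could not pass the threshold there.

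Signs changed for values that had not passed the test. Drd3 in R6/1 “good” against wild-type mice was 0.51 with the library set as a covariate, 0.49 within libraries 1 to 8 and −0.50 to 0.093 with each mouse left out. Within libraries 9 to 16 Drd3 was −0.39 in R6/1 against wild-type mice, where all 3 R6/1 mice are “poor” ones, and within libraries 1 to 8 it was 1.64 with the single R6/1 “poor” mouse there (adjusted p = 0.182, edgeR). With each mouse left out it was −0.12 to 0.53 for R6/1 “poor” and −0.12 to 0.27 for all R6/1 mice. In wild-type “poor” against “good” mice Drd3 was 0.14 with the replicate block, 0.54 within libraries 1 to 8 and −0.31 to 0.48 with each mouse left out. Drd5 there was −0.028 with the covariate, −0.083 within libraries 9 to 16, −0.13 without the mice of high cortical sums and −0.13 to 0.24 with each mouse left out, and Drd1 0.14 within libraries 1 to 8 and −0.16 to 0.085. The interaction of Drd3 was −0.10 to 0.76. Of the values of single genes, 660 kept direction and side of the threshold, 25 changed sign, 12 passed it newly and 3 no longer. R6/1 “good” mice are absent from libraries 9 to 16, so 3 comparisons could not be made there. Drd5 in R6/1 “poor” against wild-type mice passed the threshold under 6 alternatives, the replicate block (adjusted p = 0.0282, edgeR) and the covariate (adjusted p = 0.0495, edgeR) among them, and another being that without its 2 highest R6/1 “poor” mice, which had to lower it. It missed the threshold under the others, with adjusted p up to 0.431 (edgeR, within libraries 1 to 8). Drd3 and Drd5 rest on few counts, and counting error and the spread between mice were not told apart for them. Wild-type “good” mice 1 and 2, whose sample names share a number, gave Drd2 values in R6/1 “poor” mice of −2.05 and −2.06 when each was left out.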
